A study of Mus musculus with 24 samples.

Results

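Naive CD4 T cells lacking Raptor and stimulated for 24 h were set against wild-type cells stimulated for only 8 h. The 4 samples titled as CD4(cre)Raptor(fl/fl) at 24 h and the 4 wild-type samples at 8 h were taken by their titles, 8 of the 24 samples of the series. Both genotype and time differ between these groups, so the part of each in a difference cannot be told apart. The question was how far the late Raptor-deficient state lay from the early wild-type state. The wild-type cells carry the strain label C57BL/6, and no strain is given for the CD4(cre)Raptor(fl/fl) mice, in which a Cre recombinase active in T cells removes a floxed stretch of Rptor. All cells were mouse CD4 T cells of naive phenotype (CD62Lhi, CD44lo, CD25-), sorted from spleen and peripheral lymph nodes and, in these 2 groups, cultured on plate-bound antibodies to CD3 and CD28. The other 4 groups, each with 4 samples, were both genotypes unstimulated, Raptor-deficient cells at 8 h and wild-type cells at 24 h. RNA was measured on Affymetrix arrays as log2 intensity, and n is 4 for every group mean. The labels do not say whether the replicates of a group are different animals. The spread on which the p-values rest may therefore be technical.

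Raptor is the subunit that gives the kinase complex mTORC1 its substrates. In T cells that meet antigen, mTORC1 couples the receptor and costimulatory signals to protein synthesis, nutrient uptake, lipid and nucleotide synthesis and entry into the cell cycle. Activation itself runs in waves, with immediate early transcription factors and cytokine genes first, growth and biosynthesis genes next, and replication and mitosis genes last.

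Rptor, the targeted gene, read 7.49, 7.51, 7.57 and 7.46 in the wild-type 8 h samples and 6.25, 6.60, 6.45 and 6.48 in the Raptor-deficient 24 h samples. The groups did not overlap, and the level was 2.09-fold lower (limma adjusted p = 8.97e-05). A further Rptor probe set showed a log2 difference of -0.75 (adjusted p = 1.49e-06). The probes could not be placed against the deleted stretch, so these values do not show how complete the deletion was.

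Replicates correlated across genes with r between 0.992 and 0.996 in the 2 groups. Replicate 1 of the wild-type 8 h group stood apart on the component that separated stimulated from unstimulated cells, at 14.5 against 23.9 to 29.6 in the other 3. Replicate 1 of the Raptor-deficient 24 h group had a mean of 6.07 over 19 liver genes, against 3.99 to 4.06 in the other 3 and 3.98 to 4.07 in the wild-type 8 h samples. In limma 0 of these 19 genes was called, and 1 had an unadjusted p under 0.05. High values in 1 sample widen the spread, so the lack of calls does not measure that sample's liver signal. The list's median difference was 0.47. Over the same genes the means of the wild-type 24 h samples ran from 4.004 to 5.955. All 13 measured markers of alpha beta CD4 T cells lay at or above the median of all gene values, 5.51, in both groups. Markers of B cells averaged 5.20 to 5.69 over 15 genes in the Raptor-deficient 24 h samples and 4.97 to 5.06 in the wild-type 8 h samples, and 3 of the 15 were called higher (H2-Aa, Cd79a and Pax5). The 15 markers averaged 5.11 to 5.49 in unstimulated Raptor-deficient samples and 5.15 to 5.53 in those at 8 h. In wild type they averaged 4.89 to 5.22 unstimulated and 4.82 to 5.05 at 24 h. Among the other marker lists, Lyz2 of the 17 myeloid, Nkg7 of the 8 NK cell and Cd8b1 of the 2 CD8 T cell genes were called higher, and Fcgr3, Ly6c1 and Klrd1 lower. The part of these cells in the differences described here was not tested.

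Over 17097 genes the late Raptor-deficient state lay nearer to the early wild-type state than to any other group. Group means differed from wild type at 8 h by a root mean square (RMS) of 0.321 on the log2 scale, from Raptor-deficient cells at 8 h by 0.359, from wild type at 24 h by 0.382, and from the unstimulated groups by 0.638 and 0.656. Each of the 4 samples showed the same nearest group, at distances of 0.359, 0.334, 0.365 and 0.337 from the wild-type 8 h mean, although the third lay almost as near to wild type at 24 h (0.372). A Raptor-deficient 24 h sample differed from the mean of the other 3 of its group by 0.160 to 0.198, so that the gap to the nearest group was well above the spread of replicates. These distances are a description with no test.

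**Figure D1:**
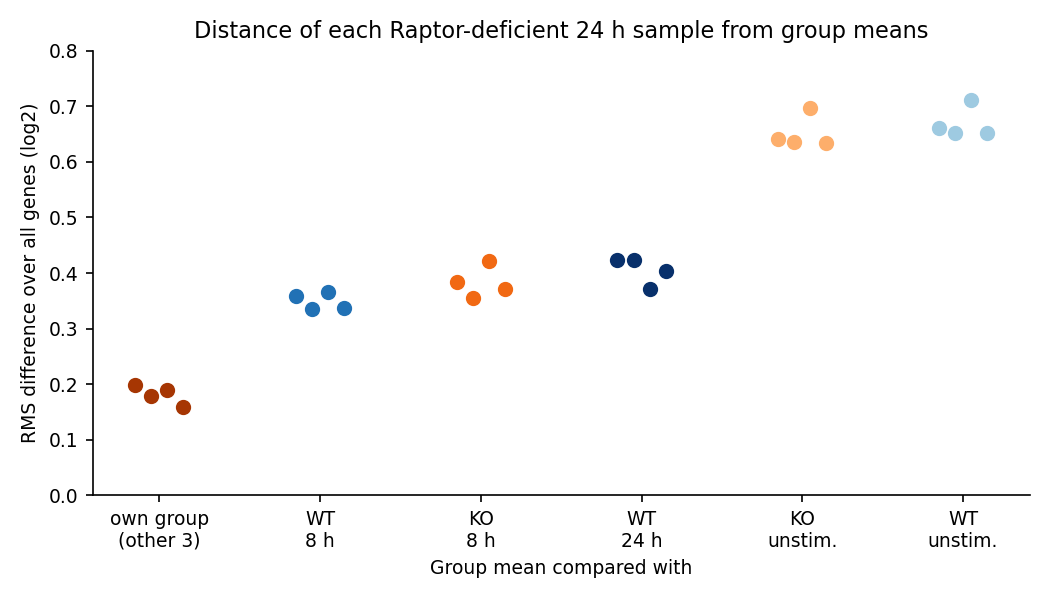
Root mean square log2 difference over 17097 genes between each of the 4 Raptor-deficient 24 h samples (points) and the mean of each group (WT, wild type; KO, Raptor-deficient). The 4 points for wild type at 8 h lie at 0.334 to 0.365, below the same sample's point for every other group and above 0.198, the highest distance within the own group.

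In limma, 3099 of the 17097 genes were called between the groups at an adjusted p under 0.05, or 18.1%. Of these, 1836 (10.7%) were higher and 1263 (7.39%) lower in the Raptor-deficient 24 h samples, and 250 (1.46%) and 50 (0.292%) differed at least 2-fold. When each array was centred on its own median instead, the split turned to 1407 higher and 1929 lower, with the median of all differences moving from 0.00 to -0.06. For 13752 genes (80.4%) the 95% interval of the difference lay within 1.5-fold in either direction. Without replicate 1 of both groups, an alternative chosen after seeing the data, 1613 genes were higher and 1020 lower. The same fit called 1428 genes (8.35%) higher and 2243 (13.1%) lower in Raptor-deficient than in wild-type cells at 24 h, and 2967 (17.4%) higher and 1878 (11%) lower in wild-type cells at 24 h than at 8 h; these comparisons share samples with the first.

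**Figure D2:**
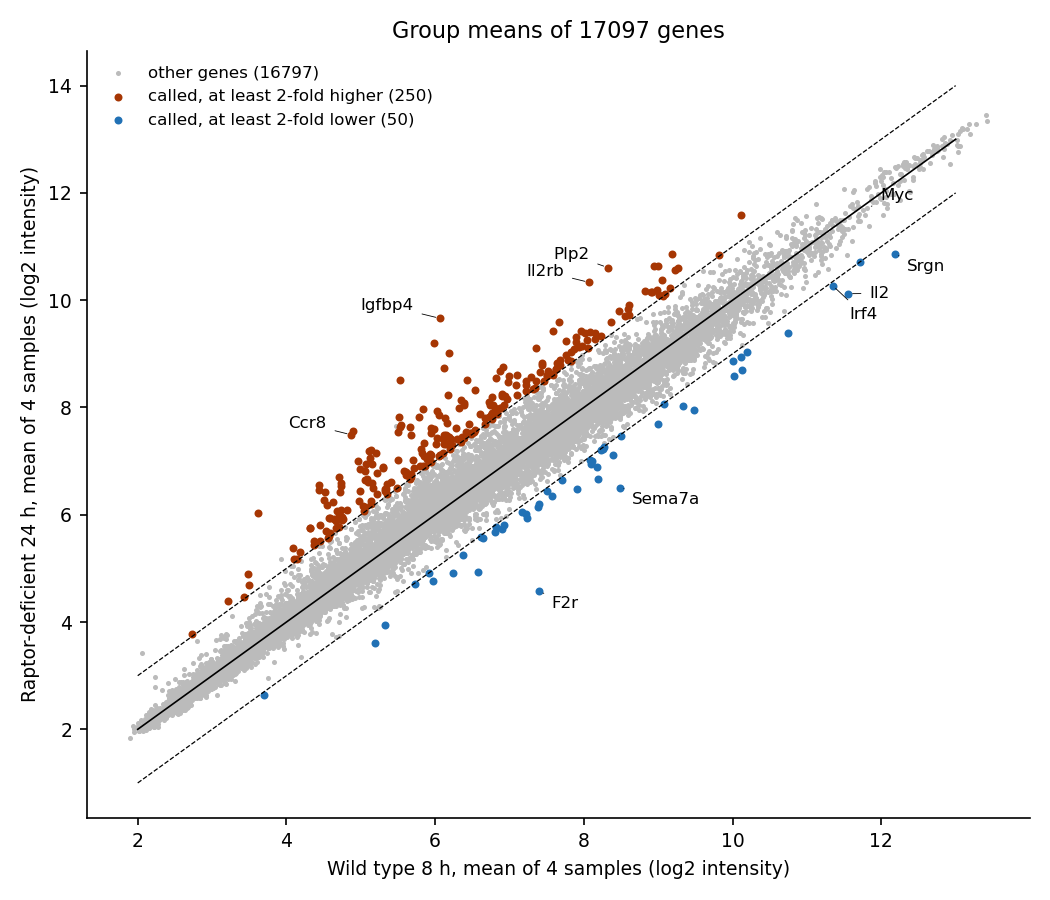
Mean log2 intensity of 17097 genes in the 4 wild-type 8 h samples (x axis) and the 4 Raptor-deficient 24 h samples (y axis), with the line of equality and dashed lines at 2-fold. The 250 genes called at least 2-fold higher outnumber the 50 called at least 2-fold lower, and Myc lies near the line of equality.

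Genes were also sorted by their response in samples outside the comparison. Early risers (714 genes) were at least 2-fold higher in Raptor-deficient cells at 8 h than unstimulated, and 275 of them (38.5%) were lower in Raptor-deficient cells at 24 h than in wild type at 8 h, against 72 higher. Early fallers (431 genes), which dropped as much in the same samples, ran the other way, with 134 (31.1%) higher and 42 lower. Median levels in wild type at 8 h and Raptor-deficient cells at 8 h and 24 h were 8.68, 8.45 and 8.51 for early risers. For early fallers they were 6.90, 7.06 and 7.14. At 8 h, 279 early risers were lower and 69 higher in Raptor-deficient than in wild-type cells. From 8 h to 24 h in Raptor-deficient cells, 175 early risers were higher and 155 lower. The Raptor-deficient 8 h samples also defined these classes. Late risers (880 genes), which rose at least 2-fold by 24 h in wild-type cells but changed less than 1.5-fold by 8 h in Raptor-deficient ones, held 349 genes (39.7%) that were higher and 41 that were lower. The median level of these 880 was 6.79 in wild type at 8 h, 7.07 in Raptor-deficient cells at 24 h and 7.90 in wild type at 24 h. Of 294 late fallers, defined in the same way by a drop, 61 (20.7%) were lower and 23 (7.82%) higher. Without replicate 1 of both groups 39 were lower. Over all genes 10.7% were higher and 7.39% lower.

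Il2, Irf4, Fasl and Tnf were lower in the late Raptor-deficient state. Il2, the T cell growth factor, read 11.16, 11.52, 11.81 and 11.74 at 8 h in wild type and 9.88, 10.07, 10.39 and 10.14 at 24 h without Raptor. All 4 late samples lay below all 4 early ones, as the choice of the largest decreases required. The difference was 2.71-fold (limma adjusted p = 4.59e-07), while the unstimulated wild-type mean was 4.43. Il2 averaged 10.89 in wild type at 24 h and 10.73 in Raptor-deficient cells at 8 h. Irf4, a factor induced in step with receptor signal strength, was 11.31, 11.29, 11.37 and 11.40 against 10.34, 10.16, 10.38 and 10.20, a 2.10-fold difference (adjusted p = 7.31e-05) with no overlap. Fasl, which encodes a death ligand, was 3.11-fold lower (6.37 to 6.92 against 4.53 to 5.25, adjusted p = 1.26e-08). Its late level lay under the median of all genes, where intensities are near background. Tnf was 1.54-fold lower.

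Of 23 immediate early factors, 9 (39.1%) were lower and 2 higher, with a median difference of -0.23 against 0.00 over all genes. Fos and Fosl1, subunits of AP-1, were 2.28-fold and 2.21-fold lower, and the feedback regulators Spry1 and Dusp2 were 1.75-fold and 1.52-fold lower. Egr2, a receptor-induced zinc finger factor, was 1.56-fold lower (adjusted p = 0.000323). The 2 higher members were Jund, an AP-1 subunit (difference 0.27, adjusted p = 0.0321), and Dusp4, a nuclear MAP kinase phosphatase. Dusp4 read 8.49, 8.68, 8.61 and 8.51 late against 6.95, 7.21, 7.51 and 7.50 early (2.43-fold higher, adjusted p = 2.74e-05). It averaged 8.58 in Raptor-deficient cells at 8 h and 7.45 in wild type at 24 h, so both stimulated Raptor-deficient groups lay above both wild-type ones.

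Other genes with a high early level were also lower late. Sema7a, a membrane-anchored semaphorin, read 8.25, 8.55, 8.47 and 8.66 early and 6.48, 6.35, 6.67 and 6.52 late, 3.94-fold lower (limma adjusted p = 9.25e-10). Its groups did not overlap, as the choice of the largest decreases required. Nfkbid, a nuclear regulator of NF-kappa-B, was 2.87-fold lower, Map2k3, a kinase of the p38 pathway, 2.67-fold, and Srgn, the granule proteoglycan serglycin, 2.50-fold. Their means in wild type at 24 h were 6.38 for Sema7a, 7.83 for Nfkbid, 8.69 for Map2k3 and 10.84 for Srgn, within 0.13 of the late Raptor-deficient means, and none of the 4 was called between the genotypes at 24 h. F2r, the thrombin receptor, showed the largest fall of the named genes, from 7.28, 7.42, 7.30 and 7.61 to 4.39, 4.60, 4.30 and 5.0 (7.09-fold, adjusted p = 5e-10). It averaged 5.59 in Raptor-deficient cells at 8 h and 5.91 in wild type at 24 h. F2r and Chst2, a carbohydrate sulfotransferase (2.56-fold lower), were also called lower than in wild type at 24 h.

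A set of surface receptor and effector genes had gone well past the early wild-type level. Plp2, a membrane proteolipid, read 8.32, 8.36, 8.23 and 8.37 early and 10.67, 10.46, 10.66 and 10.65 late, 4.89-fold higher (adjusted p = 2.46e-17). For a second, dimmer Plp2 probe set the log2 difference was 0.56 (adjusted p = 0.00636), against 2.29 for the first. Il2rb, the signalling chain shared by the IL-2 and IL-15 receptors, went from 8.09, 8.07, 8.36 and 7.76 to 10.34, 10.18, 10.40 and 10.40, 4.80-fold higher (adjusted p = 9.15e-12). In neither gene did the groups overlap, as the choice of the largest increases required. Il2rb averaged 10.03 in wild type at 24 h and was not called between the genotypes there (adjusted p = 0.13). Lag3 and Ctla4, inhibitory receptors, were 4.40-fold and 3.32-fold higher, and Cd44, the adhesion receptor that marks antigen-experienced cells, was 3.04-fold higher. Il2ra, the high-affinity chain of the IL-2 receptor, was 10.20 to 10.24 early and 10.88 to 10.92 late. That 1.60-fold difference had an adjusted p of 0.0433, and the call was lost when any 1 sample was left out. The log2 difference itself stayed at 0.67 to 0.68 in those fits, whose p-values rest on the spread in all 6 groups. With the 8 compared samples alone the call held. Over 18 alternatives the adjusted p for Il2ra ran from 2.46e-05 to 0.115. A second Il2ra probe set showed a log2 difference of 0.64 (limma adjusted p = 0.00294).

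Of 29 activation factors and surface receptors, 12 (41.4%) were higher and 8 (27.6%) lower, with 7 and 3 at least 2-fold. The higher members included the TNF receptor genes Tnfrsf18 and Tnfrsf4 (differences of 1.02 and 0.57) and the factors Irf8, Bhlhe40 and Batf (1.43, 1.03 and 0.50). The lower ones included Hif1a, the hypoxia-inducible factor (-1.17), Cd40lg, the ligand with which helper T cells license B cells (-1.14), Pdcd1 (-0.80) and Cd69, an early activation marker (-0.75). Cd69 was nonetheless 9.56 to 9.82 in the late Raptor-deficient samples, against a mean of 8.83 in wild type at 24 h (adjusted p = 4.4e-06 for that difference).

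Among 33 cytokine and effector genes, 7 (21.2%) were higher and 4 (12.1%) lower, against 10.7% and 7.39% over all genes. Gzmb, the cytotoxic protease granzyme B, was 5.10, 4.70, 4.96 and 4.81 early, under the median of all genes, and 7.83, 8.12, 7.54 and 6.79 late (6.39-fold, adjusted p = 2.02e-09). Xcl1, a chemokine, was 9.26, 9.23, 9.21 and 9.04 early and 10.76, 11.05, 10.91 and 10.76 late (3.22-fold, adjusted p = 7.48e-08). The groups overlapped in neither gene, as the choice of the largest increases required for Gzmb. Xcl1 averaged 10.90 in Raptor-deficient cells at 8 h and 7.30 in wild type at 24 h, so it was high in both stimulated Raptor-deficient groups. Tnfsf11, which encodes RANKL, was 2.53-fold higher and Csf2 1.55-fold higher. Ifng was 3.59 to 4.34 early and 4.23 to 5.12 late, near background, and its call (adjusted p = 0.0376) was lost without 5 of the 8 samples taken singly.

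The largest increases included genes of several kinds. Igfbp4, a binding protein of insulin-like growth factors, was 6.38, 5.98, 6.27 and 5.63 early and 9.75, 9.43, 9.69 and 9.78 late (12.1-fold, adjusted p = 6.14e-10). The interferon-inducible membrane proteins Ifitm2 and Ifitm3 were 9.20-fold and 7.93-fold higher, the cathepsin inhibitor Cst7 7.13-fold, the galectin Lgals1 6.11-fold. The other Igfbp4 probe sets differed by 1.64, 2.01, 2.17, 3.41 and 3.61, against 3.60 for the brightest. Ahnak, a scaffold, was 4.96-fold higher by its brightest probe set, while its other 3 differed by 0.14, 0.28 and -0.23 (adjusted p = 0.373, 0.116 and 0.298). Igfbp4 and Ifitm2 were not called between the genotypes at 24 h, with wild-type means of 8.97 and 9.04. Ccr8, a chemokine receptor, was 5.08, 4.88, 4.65 and 4.87 early and 7.76, 7.19, 7.68 and 7.34 late, 6.16-fold higher (adjusted p = 2.36e-12). Its mean in wild type at 24 h was 5.20, and in Raptor-deficient cells at 8 h 7.22, so Ccr8 had the genotype pattern of Xcl1. Igkj1, an immunoglobulin kappa joining segment, was 4.40-fold higher, with 8.67 in Raptor-deficient 24 h replicate 1 and 7.21 to 7.44 in the other 3; the B cell marker levels given above moved with it. A further probe set did not pass the threshold for Atf4, Aurkb, Bcl11b, Bid, Cd44, Chst2, Ctsa, Dut, Hsd17b7, Hyou1 and Npc2, whose brightest probe sets are reported here, and its early mean ran from 3.72 in Aurkb to 8.15 in Bcl11b. Acsl3 and Rflnb had a further probe set with a smaller fall, by 0.57 and 0.52.

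**Figure D3:**
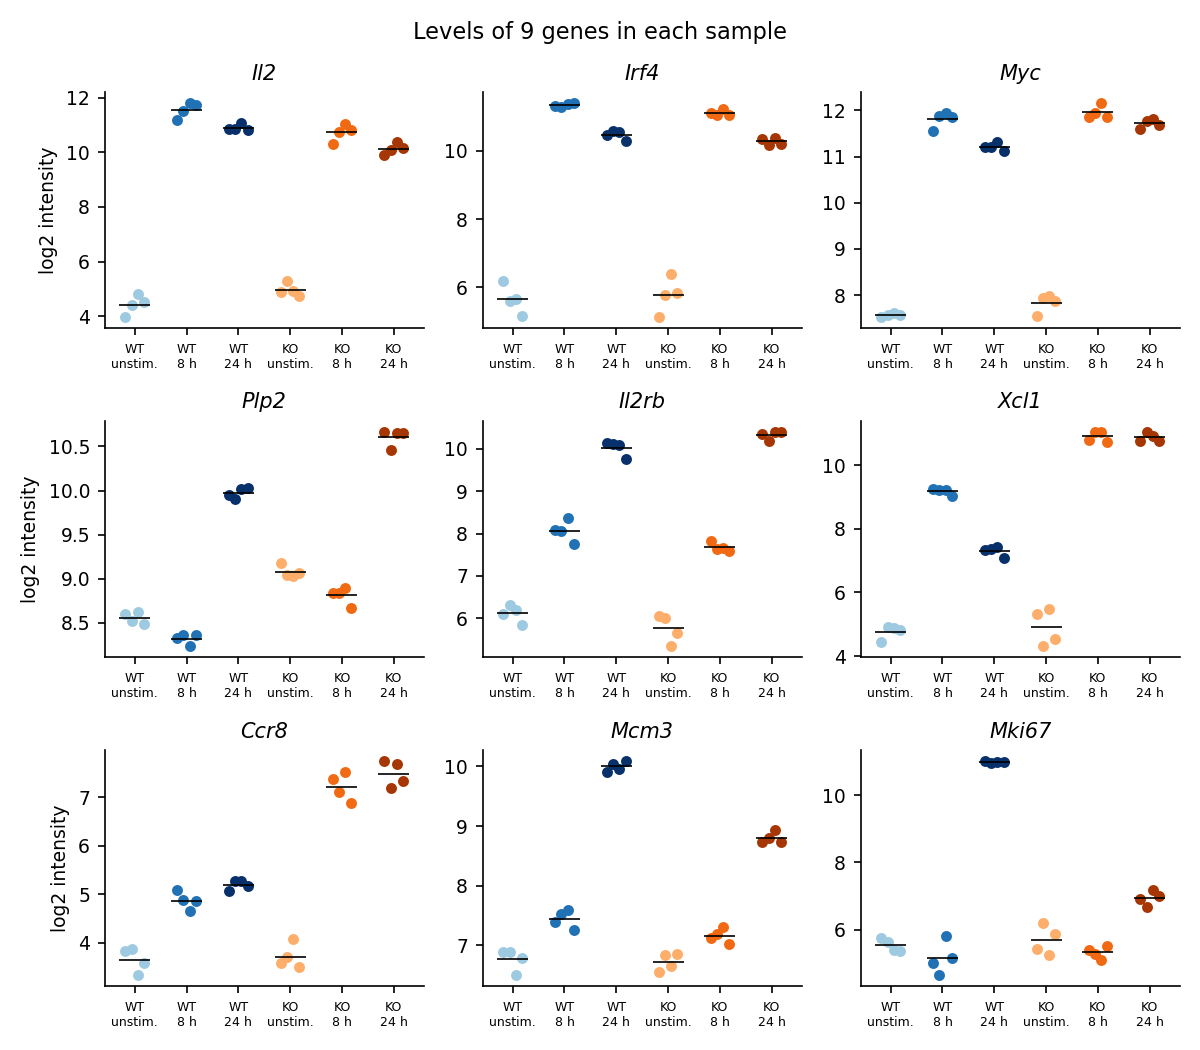
Log2 intensity of 9 genes in each of the 24 samples by group (WT, wild type; KO, Raptor-deficient), with points for samples and bars for group means. Il2 and Irf4 are lower and Plp2, Il2rb, Xcl1, Ccr8, Mcm3 and Mki67 higher in KO 24 h than in WT 8 h without overlap, while the 2 groups overlap for Myc. The choice of the largest changes required the lack of overlap for Il2, Plp2, Il2rb and Ccr8.

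Transcription factors of helper and regulatory lineages were among the higher genes. Of 21 measured, 5 were higher (23.8%) and 2 lower, and 8 were higher without wild-type 8 h replicate 1. Ikzf2, which encodes Helios, was 4.58, 4.11, 4.53 and 4.56 early and 6.57, 6.52, 6.48 and 6.30 late (4.07-fold, adjusted p = 3.27e-10). Gata3, the factor of type 2 helper cells, was 6.09, 5.96, 5.68 and 6.07 early and 7.75, 7.12, 7.85 and 7.34 late (2.97-fold, adjusted p = 2.28e-07). Foxp3, the factor of regulatory T cells, was 7.05 to 7.46 early and 7.99 to 8.52 late (2.12-fold, adjusted p = 4.00e-06). None of the 3 overlapped, and all 3 were also higher than in wild type at 24 h, by 1.19, 1.33 and 0.77. In these bulk samples, more cells of a type and more RNA per cell cannot be told apart. Bcl6, the factor of follicular helper cells, was 1.56-fold lower than in early wild type but higher than in late wild type by 1.25. Tbx21, the factor of type 1 helper cells, had a mean 0.63 higher (adjusted p = 0.25), with one early sample at 4.57 and the other 3 at 5.90 to 5.98. It averaged 7.96 in wild type at 24 h, higher than in late Raptor-deficient cells (adjusted p = 0.0005).

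Ribosome biogenesis genes were more often lower than higher in the late Raptor-deficient state. Of 47 such genes, which process ribosomal RNA and assemble ribosomes in the nucleolus, 26 (55.3%) were lower and 1, the RNA polymerase I factor Ubtf, was higher. None of the differences reached 2-fold, and the median was -0.35. Ncl, nucleolin, read 8.77, 9.30, 9.26 and 9.28 early and 8.13, 8.31, 8.27 and 8.28 late (1.87-fold lower, adjusted p = 2.79e-05). Bysl, Ftsj3 and Ddx21, all ribosome assembly factors, were 1.73-fold, 1.62-fold and 1.46-fold lower, and in each the groups did not overlap. Between the genotypes at 8 h the list's median was -0.30, with 24 genes lower and 0 higher in Raptor-deficient cells in limma. From 8 h to 24 h in Raptor-deficient cells it was -0.005, with 5 genes higher and 6 lower. The list's median difference between wild type at 24 h and 8 h was -0.12, with 9 of 47 lower and 2 higher. Of 46 cytosolic ribosomal protein genes, in contrast, 13 were higher and 0 lower in limma (23 and 0 at an unadjusted p under 0.05), all by less than 1.5-fold; 7 were higher after centring each array on its median. Arrays cannot always tell these genes from their processed copies.

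The same held for luminal chaperone and amino acid genes. Of 24 endoplasmic reticulum chaperone and unfolded protein response genes, 13 (54.2%) were lower and 2 higher (Xbp1 and Eif2ak3), with a median of -0.34. Between the genotypes at 8 h the median was -0.42, with 14 genes lower and 1 higher in Raptor-deficient cells. From 8 h to 24 h in Raptor-deficient cells it was 0.06, with 8 higher and 5 lower. Hspa5, the chaperone BiP, was 11.26, 11.27, 11.31 and 11.27 early and 10.72, 10.49, 10.56 and 10.54 late (1.62-fold lower, adjusted p = 5.33e-05). Dnajb11, its cochaperone, was 1.93-fold lower and Hyou1, another luminal chaperone, 1.72-fold lower. Of 34 amino acid transporter and ATF4 target genes, 13 (38.2%) were lower and 2 higher. Slc7a5, the large neutral amino acid transporter, was 9.22, 9.38, 9.56 and 9.38 early and 8.29, 8.46, 8.65 and 8.34 late (1.94-fold lower, adjusted p = 1.13e-05). Atf4 itself, the factor that drives these genes under amino acid shortage and downstream of mTORC1, was 10.08 to 10.11 early and 9.30 to 9.44 late (1.63-fold lower, adjusted p = 5.36e-09). It was not called between the genotypes at 24 h (adjusted p = 0.41), while the tRNA synthetase gene Aars was lower without Raptor there as well, by 0.92. Of 34 chaperonin and proteasome genes 7 (20.6%) were lower, against 7.39% over all genes, and 4 without wild-type 8 h replicate 3. Of 11 polyamine genes 4 (36.4%) were lower, and 2 without Raptor-deficient 24 h replicate 1.

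Sterol synthesis genes, which the factor SREBP2 controls, were also more often lower than higher. Of 20 cholesterol genes, 11 (55.0%) were lower and 2 higher, the median being -0.41. Hsd17b7, a sterol ketoreductase, was 6.73, 6.96, 7.01 and 6.90 early and 5.83, 5.49, 5.82 and 5.83 late (2.23-fold lower, adjusted p = 8.96e-09). Cyp51, the lanosterol demethylase, was 9.54 to 9.65 early and 8.67 to 8.81 late (1.82-fold lower, adjusted p = 1.50e-06), and the sterol sensor gene Insig1 was 1.86-fold lower. Raptor-deficient cells at 8 h averaged 7.69 for Cyp51 and 7.72 for Insig1, so the late level stood above theirs and below the wild-type means at either time. The 2 higher members were Mvd and Dhcr7, enzymes at an early and a late step of the pathway (0.47 and 0.30). Srebf2, the gene of SREBP2, differed by -0.12 (95% interval -0.34 to 0.11). Of 18 fatty acid synthesis and desaturation genes 3 (16.7%) were higher and 5 (27.8%) lower, with a median of 0.07. Over all genes 10.7% were higher and 7.39% lower. Fasn was 1.72-fold, Acaca 1.53-fold and the acyl-CoA synthetase gene Acsl3 2.36-fold lower, while the elongase gene Elovl6 and the desaturase gene Fads1 were 1.62-fold and 1.38-fold higher. Scd1, the stearoyl-CoA desaturase, was 3.37, 3.38, 3.02 and 3.09 early and 5.39, 3.88, 4.43 and 3.85 late, a range near background, and averaged 6.08 in wild type at 24 h.

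Central carbon metabolism was mixed. Of 20 glycolysis genes, 6 (30.0%) were higher and 2 lower. Tpi1, triosephosphate isomerase, was 6.63, 7.11, 6.96 and 6.89 early and 8.30, 8.07, 8.47 and 8.17 late (2.56-fold higher, adjusted p = 3.70e-07), still below wild type at 24 h by 1.74. Eno2, the enolase otherwise typical of neurons, was 3.86-fold higher, and at 6.98 to 7.35 it exceeded the wild-type 24 h mean of 5.57. Eno3, another enolase, was 4.27-fold higher. Ldha, the main lactate dehydrogenase of activated T cells, was 11.12 to 11.33 early and 10.92 to 11.11 late (difference -0.23, adjusted p = 0.0877). It passed with a trend and robust prior (adjusted p = 0.0473), array weights (0.0153) and median centring (0.0215, difference -0.30), and its adjusted p ran from 0.0153 to 0.227 over 18 alternatives. Slc16a1, a lactate exporter, was 1.52-fold lower. In the tricarboxylic acid cycle 6 of 21 genes (28.6%) were higher and 1 (4.76%) lower, led by Idh3g (1.80-fold) and Mdh1 (1.57-fold). Of 61 oxidative phosphorylation genes 19 (31.1%) were higher and 3 lower, none by 2-fold, and 12 were higher after median centring. Ndufa7, a subunit of complex I, was 9.12, 9.26, 9.33 and 9.21 early and 9.67, 9.78, 10.03 and 9.87 late (1.52-fold higher, adjusted p = 1.13e-05). The 42 mitochondrial translation genes showed 5 higher (11.9%) and 3 lower (7.14%), and for 36 (85.7%) the 95% interval lay within 1.5-fold, shares near the 10.7%, 7.39% and 80.4% over all genes.

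One-carbon, serine and nucleotide genes differed in both directions. Of 29, 8 (27.6%) were higher and 5 (17.2%) lower, against 10.7% and 7.39% over all genes. Dut, Tyms, Rrm2, Rrm1 and Tk1, which make deoxynucleotides, were higher by 1.15, 1.18, 0.91, 0.85 and 0.73. Shmt2, the mitochondrial serine hydroxymethyltransferase, was 9.51, 9.79, 9.93 and 9.69 early and 8.97, 8.97, 9.11 and 9.04 late (1.63-fold lower, adjusted p = 2.65e-06). Impdh1, of guanine nucleotide synthesis, was 1.72-fold lower. Prps2, which makes the ribose phosphate donor of nucleotides, was 1.71-fold higher. The CTP synthase genes Ctps and Ctps2 differed by -0.36 and 0.52, and the serine synthesis genes Psat1 and Phgdh by -0.41 and 0.38. The Phgdh call (adjusted p = 0.0311) was lost in 10 of 18 alternatives, among them the omission of replicate 1, 3 or 4 of either group, and its adjusted p over the 18 ran from 0.000482 to 0.224.

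DNA replication genes had the largest median increase among the gene lists. Of 43 measured, 34 (79.1%) were higher, 14 of them at least 2-fold, and 1, the origin recognition gene Orc2, was lower. The median difference was 0.71, against 0.00 over all genes. Uhrf1, which recruits the maintenance methyltransferase to replicating DNA, was 6.28, 6.15, 6.54 and 6.41 early and 8.12, 8.09, 8.38 and 7.95 late (3.46-fold higher, adjusted p = 8.06e-13). Mcm3, a subunit of the replicative helicase, was 7.39, 7.53, 7.59 and 7.25 early and 8.72, 8.80, 8.93 and 8.74 late (2.57-fold, adjusted p = 2.14e-10). Lig1, the ligase of lagging strand synthesis, was 3.19-fold higher and Gins2, a helicase partner, 2.42-fold. All 4 lay below wild type at 24 h, by 2.14, 1.20, 1.77 and 1.71. In wild-type cells the list's median rose by 2.06 from 8 h to 24 h, and the late Raptor-deficient level was 1.25 below that of wild type at 24 h, with 42 of 43 genes called lower.

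Mitosis genes had a smaller median difference. Of 46 mitosis and spindle genes, 17 (37.0%) were higher and 0 lower in limma (23 and 0 at an unadjusted p under 0.05), 3 at least 2-fold, and the median difference was 0.23. For 26 of them (56.5%) the 95% interval lay within 1.5-fold, a smaller share than the 80.4% over all genes. Of the 46, 45 had a late Raptor-deficient mean closer to wild type at 8 h than at 24 h. For DNA replication that number was 37 of 43, and over all genes 8977 of 17097 (52.5%). Mki67, the proliferation marker Ki-67, read 5.0, 4.65, 5.82 and 5.16 early and 6.91, 6.67, 7.20 and 6.99 late (3.45-fold higher, adjusted p = 8.77e-08), and averaged 10.98 in wild type at 24 h. Ube2c, a ubiquitin-conjugating enzyme of the anaphase-promoting complex, was 1.99-fold higher at 6.08 to 6.49 and averaged 10.02 in wild type at 24 h. Aurkb, the mitotic kinase Aurora B, was 3.73 to 4.0 early and 4.14 to 4.55 late, near background in both, and averaged 8.20 in wild type at 24 h. Median levels over the mitosis list were 5.20 in wild type at 8 h, 5.60 in Raptor-deficient cells at 24 h and 7.65 in wild type at 24 h. The first lay under 5.51, near background, and the second just above it, which limits what can be said of these differences. For DNA replication the medians were 6.77, 7.78 and 8.89, so the 2 lists were not compared at like levels.

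**Figure D4:**
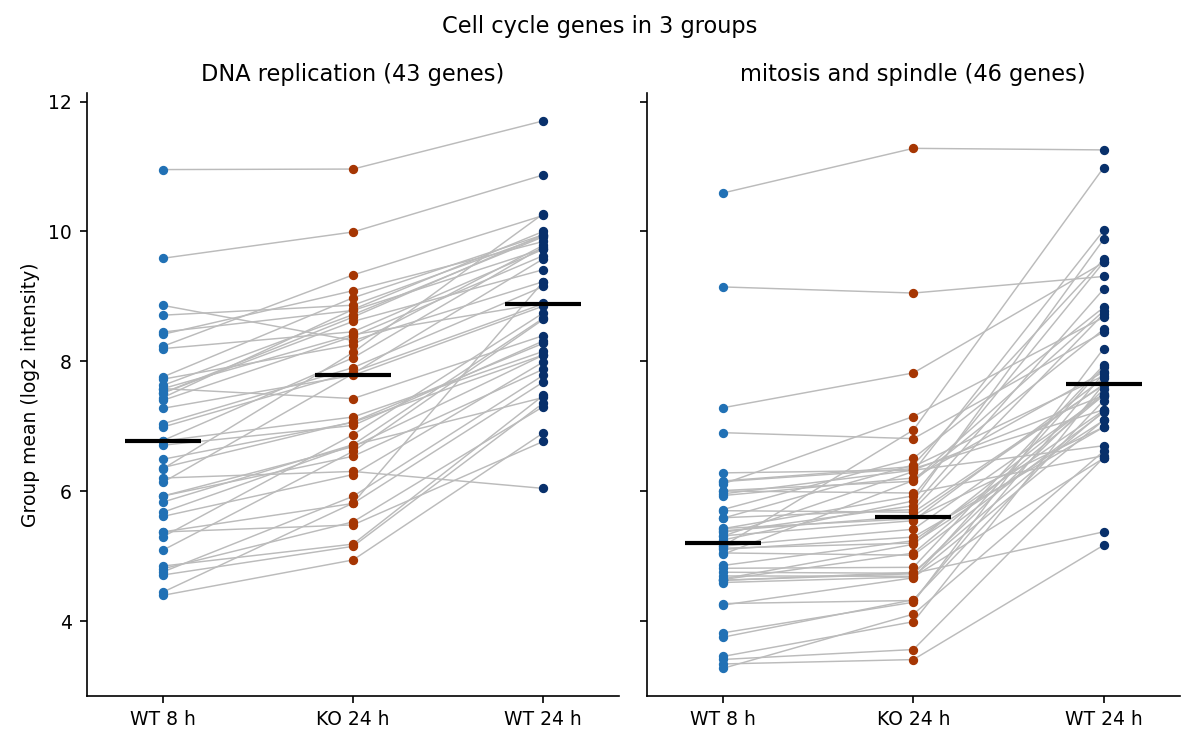
Group mean log2 intensity of each measured DNA replication gene (left, 43) and mitosis and spindle gene (right, 46) in wild type at 8 h, Raptor-deficient cells at 24 h (KO) and wild type at 24 h, with lines joining a gene and bars at the list median. Replication genes stand between the wild-type times (medians 6.77, 7.78 and 8.89), while most mitosis genes stay near the wild-type 8 h level (medians 5.20, 5.60 and 7.65).

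Promoters of both lists were searched for motifs, and 3 are shown because their genes represent the replication and mitosis groups. E2F factors open the replication programme at the start of S phase, and the DREAM and MuvB complexes act at the CHR element in G2 and M phase genes. In RefSeq promoters of build GRCm38.p6, from 250 bases before to 50 bases after a start, an E2F site (TTTCCCGC, TTTCGCGC, TTTGGCGC or TTTGCCGC on either strand) was present in 15 of 43 DNA replication promoters (34.9%), 3 of 41 mitosis promoters (7.32%) and 2.26% of all 32851. These 43 promoters belong to 34 of the replication genes and the 41 to 38 of the mitosis genes, since a gene can have several and the others matched none; by gene, 15 of 34 (44.1%) and 3 of 38 (7.89%) had the site. The CHR element (TTTGAA on either strand) was present in 33 of 41 mitosis promoters (80.5%), 6 of 43 replication promoters (14%) and 17.9% of all. These are matches of letters, not measured binding. The 250 bases before the start follow with the match in capitals, for Uhrf1 (chr17:56304063-56304312, plus strand), Mki67 (chr7:135716380-135716629, minus strand) and Ube2c (chr2:164769679-164769928, plus strand).
Uhrf1: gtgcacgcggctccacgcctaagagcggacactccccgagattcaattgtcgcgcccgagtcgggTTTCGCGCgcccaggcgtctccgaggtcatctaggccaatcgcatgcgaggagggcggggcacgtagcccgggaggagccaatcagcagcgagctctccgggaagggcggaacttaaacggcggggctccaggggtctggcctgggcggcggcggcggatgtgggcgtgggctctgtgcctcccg
Mki67: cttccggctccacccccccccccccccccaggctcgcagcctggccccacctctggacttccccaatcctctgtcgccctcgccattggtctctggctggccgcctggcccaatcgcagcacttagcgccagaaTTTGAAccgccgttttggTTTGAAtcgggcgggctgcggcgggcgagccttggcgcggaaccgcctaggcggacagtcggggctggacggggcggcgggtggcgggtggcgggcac
Ube2c: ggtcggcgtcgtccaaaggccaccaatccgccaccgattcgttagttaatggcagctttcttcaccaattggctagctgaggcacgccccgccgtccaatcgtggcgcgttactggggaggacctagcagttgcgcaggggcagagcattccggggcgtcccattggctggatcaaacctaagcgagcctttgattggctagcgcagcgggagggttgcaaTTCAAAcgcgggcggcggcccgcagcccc
The E2F match of Uhrf1 begins 185 bases before the start. The CHR matches of Mki67 begin 116 and 98 bases before it and the match of Ube2c 29 bases before it, where the letters read on the opposite strand. In Mcm3 and Lig1 the E2F matches lay just after the start. Ncapd2 of the mitosis list also had a CHR match, 123 bases before the start, and is not shown. Gins2 and Smc4 had no promoter in the set searched.

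The genes that govern G1 held both activators and brakes. Of 24, 9 (37.5%) were higher and 0 lower in limma (10 and 2 at an unadjusted p under 0.05); 5 were higher after median centring or without wild-type 8 h replicate 4. Rbl2, the pocket protein p130 that holds cells out of cycle, was 7.39, 6.88, 6.52 and 6.63 early and 7.87, 7.89, 7.77 and 7.85 late (1.99-fold higher, adjusted p = 5.45e-05). E2f2 and E2f8 were higher by 0.57 and 0.59 but averaged 5.49 and 4.94 late, against 7.97 and 8.75 in wild type at 24 h. Cdk4 differed by 0.03 (95% interval -0.22 to 0.29) and turned to -0.04 after median centring. Ccnd2 differed by -0.18 (-0.41 to 0.04).

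Quiescence genes did not move as a block. Of 28, 6 (21.4%) were higher and 5 (17.9%) lower with a median of 0.00, against 10.7% and 7.39% over all genes. Compared with wild type at 24 h, 19 were higher and 2 lower. Klf2, which keeps naive T cells recirculating, was 9.52, 8.96, 8.51 and 8.54 early and 8.81, 8.58, 8.23 and 8.51 late, with overlap and an adjusted p of 0.139. S1pr1, the egress receptor that Klf2 drives, was 7.26 to 8.83 early and 7.39 to 7.86 late (adjusted p = 0.397). Without wild-type 8 h replicate 3 both were called lower, with differences of -0.47 for Klf2 (adjusted p = 0.0455) and -0.57 for S1pr1 (0.0255). Over 18 alternatives the adjusted p ran from 0.0385, with a replicate block, to 0.573 for Klf2 and from 0.0255 to 0.92 for S1pr1. The Klf2 and S1pr1 means in wild type at 24 h were 7.39 and 6.60, well below. Bcl11b and Pdcd4 were 1.54-fold and 1.51-fold higher, and Slfn2 and Il6ra 1.64-fold and 1.69-fold lower. Some genes that fall early had gone further down, among them Rflnb (2.42-fold) and the sialyltransferase gene St8sia6 (2.05-fold).

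Nutrient sensing and lysosome genes were in part higher. Of 23 mTORC1 and nutrient sensing genes, 5 were higher and 3 lower. Rragd, a small GTPase that tethers mTORC1 to the lysosome, read 5.75, 5.53, 5.75 and 5.66 early and 7.79, 7.38, 7.33 and 7.46 late (3.53-fold higher, adjusted p = 7.65e-10). It averaged 7.14 in unstimulated Raptor-deficient cells and 5.78 in unstimulated wild type, so its level was high in each Raptor-deficient group. Fnip1, a partner of folliculin, was 2.52-fold higher and its paralogue Fnip2 1.94-fold lower. Of 30 lysosome and autophagy genes, 12 (40%) were higher and 1, Atg5, lower. Npc2, the luminal cholesterol carrier, was 10.11, 9.83, 9.76 and 9.56 early and 10.93, 10.77, 10.92 and 10.77 late (2.05-fold, adjusted p = 2.22e-07), and the proteases Ctsa, Tpp1 and Ctsd were 2.19-fold, 1.91-fold and 1.79-fold higher.

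Survival and interferon genes completed the differences. Bcl2, which blocks mitochondrial apoptosis, was 9.14, 9.21, 9.28 and 9.29 early and 10.58, 10.50, 10.64 and 10.54 late (2.53-fold higher, adjusted p = 5.54e-09), against 9.60 in wild type at 24 h. The p53 target Aen and the BH3 gene Bid were 1.75-fold and 1.5-fold lower. Of 27 interferon-stimulated genes 6 (22.2%) were higher and 0 lower in limma (8 and 0 at an unadjusted p under 0.05). Ifit1 was 6.16, 6.27, 5.96 and 5.40 early and 7.84, 7.49, 7.91 and 7.21 late (3.17-fold, adjusted p = 1.65e-06) and averaged 5.89 in wild type at 24 h.

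Several central activation genes were measured as alike in the 2 groups. Myc, the factor behind growth of activated T cells, was 11.56, 11.88, 11.96 and 11.86 early and 11.60, 11.78, 11.81 and 11.69 late, a difference of -0.10 (95% interval -0.30 to 0.11), from an unstimulated wild-type mean of 7.56. Egr1 differed by -0.13 (-0.35 to 0.09), Tnfrsf9, the costimulatory receptor 4-1BB, by 0.20 (-0.08 to 0.47), and Mtor, the kinase of the complex, by -0.13 (-0.29 to 0.03). Each interval lay within 1.5-fold. Txnip, an inhibitor of glucose uptake that falls on activation, differed by 0.04 (-0.24 to 0.32), with 1 early sample at 10.30 and the other 7 between 9.40 and 9.94; the sign turned after median centring. Myc, Egr1, Tnfrsf9 and Txnip were all higher than in wild type at 24 h, by 0.51, 0.78, 0.97 and 1.27.

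**Figure D5:**
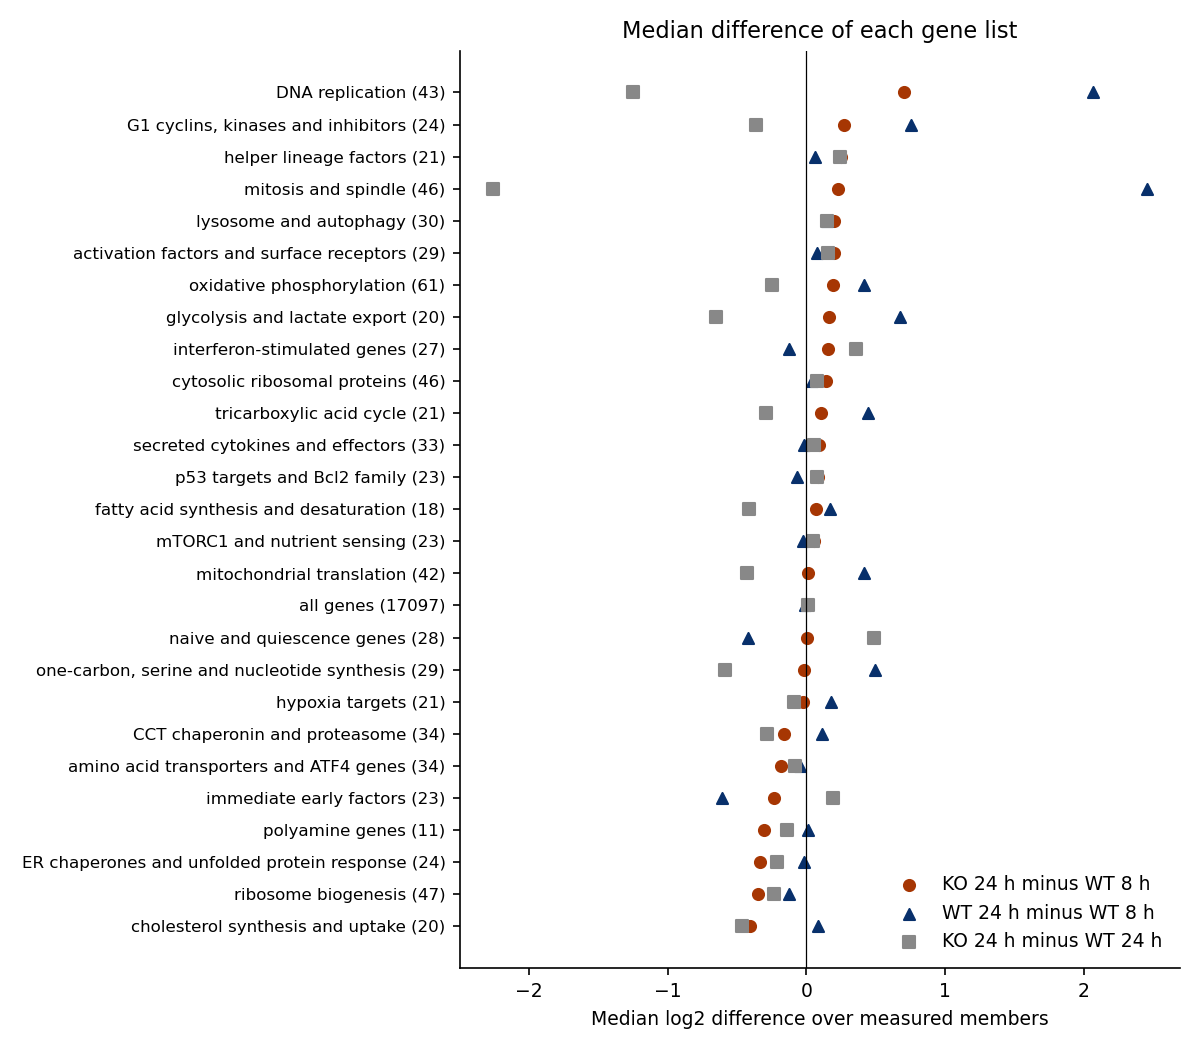
Median log2 difference over the measured members (number in brackets) of 26 gene lists and of all 17097 genes, for Raptor-deficient cells at 24 h minus wild type at 8 h (circles), wild type at 24 h minus 8 h (triangles) and the genotypes at 24 h (squares; KO, Raptor-deficient). Circles run from -0.41 for cholesterol genes to 0.71 for DNA replication, while the triangles reach 2.06 for DNA replication and 2.45 for mitosis.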

How the data were processed

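RNA of 24 samples, 4 in each of 6 groups taken from the titles, was amplified from 20 ng and hybridised to Affymetrix HT MG-430 PM arrays, per the labels' protocols. The deposited table holds log2 intensities, which the authors made with RMA and Partek 6.5, per the submitters' processing notes. RMA gives all arrays nearly the same distribution, so a shift of all genes together would not show. Of 45141 probe sets, 28898 had 1 gene symbol, 551 several and 15692 none here; 28689 matched RefSeq (GRCm38.p6). Each of 17097 genes was represented by its brightest probe set, by the mean of all 24 arrays, with no level filter. The number of arrays limits the precision.

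All samples entered a single limma 3.58.1 model (R 4.3.3) with a mean for each of 6 groups, two-sided, with Benjamini-Hochberg adjustment over all genes, and 0.05 as the threshold of a call. It was also tested on data simulated with the spread of each gene, in which only 200 genes changed. There it called 79.1% of 67 genes with a 1.5-fold change, 98.5% of 67 at 2-fold and 100% of 66 at 4-fold. The real comparison called 3099 genes, so these shares need not hold for it. Lists are described by counts and medians, with no set test. Named genes were the 15 largest increases and decreases among called, non-overlapping genes whose higher mean reached 5.51, up to 4 called members of each list with the smallest p, a chosen set of activation genes, and 10 early response genes in each direction. Exceptions within lists and marker genes were named after their values were seen. The groups compared, the lists and the genes were chosen with earlier results of these data known. Some list members were not analysed here. Alternatives were other probe set rules, filters, normalizations, priors and array weights, the 8 compared samples alone, a replicate block, and samples left out.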

Additional observations from a re-analysis of the deposited data

Results flagged for a closer look

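In 17 of 372 groups of 4 values, over 186 named genes, one sample lay apart from the other 3 by a share of the group's range above Dixon's 95% critical value. Chance alone gives about 1 in 20 such groups. In wild-type 8 h replicate 2, Cst7 at 5.93 against 6.23 to 6.29, Ikzf2 at 4.11 against 4.53 to 4.58 and Aurkb at 4.0 against 3.73 to 3.78 stood apart. In Raptor-deficient 24 h replicate 2, Lgals1 at 8.40 against 8.80 to 8.88, Plp2 at 10.46 against 10.65 to 10.67 and Hsd17b7 at 5.49 against 5.82 to 5.83 stood apart. In Raptor-deficient 24 h replicate 1, Igkj1 at 8.67 against 7.21 to 7.44 stood apart. In wild-type 8 h replicate 1, Coq10b at 9.22 against 9.36 to 9.38, Fosl1 at 7.5 against 8.25 to 8.38, Ncl at 8.77 against 9.26 to 9.30 and Psmd12 at 9.0 against 9.26 to 9.29 stood apart. In Raptor-deficient 24 h replicate 3, Spry1 at 8.83 against 8.56 to 8.60, Cox8a at 9.99 against 9.70 to 9.74, Bcl6 at 8.53 against 8.71 to 8.74, Slc2a1 at 9.16 against 8.80 to 8.84 and Psat1 at 9.76 against 9.45 to 9.47 stood apart. In wild-type 8 h replicate 4, Tbx21 at 4.57 against 5.90 to 5.98 stood apart.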

How the results depend on the processing

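Of 186 named genes, 159 were called, and 164 kept direction and side of the threshold under every alternative run. The count of called genes ran from 2592 to 3003 when 1 sample was left out. Median centring gave 1929 genes called lower; the 95% interval lay within 1.5-fold for 5971 genes once dim genes were left out, where fewer genes are tested. Cytosolic ribosomal proteins called higher numbered 20 with the mean of probe sets, 20 without dim genes, 20 with a trend and robust prior, 22 with array weights and 7 with centring. Array weights gave 9 helper lineage factors called higher, 8 polyamine genes lower and 15 chaperonin and proteasome genes lower. Centring gave 12 oxidative phosphorylation and 5 G1 genes higher, and 7 polyamine and 12 chaperonin and proteasome genes lower; the 8 samples alone also gave 12 of the last. Without replicate 1 of both 24 h groups, 2 polyamine and 4 chaperonin and proteasome genes were lower and 5 G1 genes higher. Without replicate 1 of both compared groups, chosen after seeing the data, 8 helper lineage factors were higher and 39 late fallers lower. Leaving out 1 sample gave 5 to 8 helper lineage and 5 to 8 G1 genes higher, and 2 to 6 polyamine, 4 to 8 chaperonin and proteasome and 3 to 5 p53 and Bcl2 family genes lower. Uncalled genes changed sign: Txnip to -0.028 with centring, Cdk4 to -0.035 with centring, Itga4 to 0.002 without replicate 1 of both compared groups, and Als2cl to -0.003 with cyclic loess, -0.067 with centring and -0.125 without replicate 1 of both 24 h groups. With 1 sample left out, Txnip ran from -0.077 to 0.225 and Als2cl from -0.206 to 0.226. The cause was not tested. Samples of the same replicate number deviated together with r of 0.19, -0.02, 0.14 and 0.03. Those of unlike number had r from -0.18 to 0.07. Whether the numbers pair the samples cannot be told from these few values. A replicate block called 3193 genes, and among the named genes changed the call of Klf2 (-0.35, adjusted p = 0.0385). Genes near the array background, under about 5.51, limit what can be said of their fold.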
